A study of Mus musculus with 2 samples.

Results

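Mir183, Mir96 and Mir182 are 3 microRNA (miRNA) genes that lie close together on mouse chromosome 6. They were chosen by name and position as 3 of the 1638 miRNA features of the small RNA sequencing (smRNA-seq) table. This choice was made with earlier results of these data known. The table holds 1 library of mouse embryonic stem cells (mESCs) and 1 library of male germ cells. The mESCs were wild-type cells of the line E14, for which the methods describe naive, feeder-free culture with LIF and inhibitors of MEK and GSK3. The study's list of datasets calls this library mESC without the word naive, which it uses for its mRNA libraries of mESCs. The germ cells came from male embryos at E15.5, an age in days of embryonic development, of wild-type background strain C57Bl/6J, and the methods add that their mothers expressed an Oct-4/GFP transgene. GEO's labels call them primordial germ cells, and they are called prospermatogonia here, as in the study, which sequenced small RNAs of prospermatogonia to look for PIWI-interacting RNAs and set mESCs against them. A library of primordial germ cell-like cells, which that comparison also included, was not analysed here. The sources used here do not say how many embryos were pooled. With 1 library per cell type, no difference between the cell types has a replicate check, no test was run, and the 95% Wilson intervals given below cover counting error only, since reads copied by PCR are not independent molecules.

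The 3 miRNAs are made from 1 long primary transcript, which the nuclease Drosha cuts into hairpins and Dicer then cuts into mature miRNAs of the 5′ (5p) and 3′ (3p) arm. A mature miRNA finds its target mRNAs mainly through its seed, bases 2 to 8 counted from its 5′ end. The cluster is best known from sensory organs, where it is abundant in photoreceptors and inner ear hair cells and where seed mutations of Mir96 cause hearing loss. Each cluster miRNA can repress mRNAs of its own, and the similar seeds allow some targets to be shared.

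The hairpins are shown because each feature of the table is 1 hairpin, so that reads of its arms are summed. They were read from RefSeq on GRCm38.p6, in which all 3 features had exactly the position of the hairpin of the same name. Capitals mark the mature 5p and 3p arms, and the order is that of transcription on the minus strand.
Mir183, chr6:30169668-30169737: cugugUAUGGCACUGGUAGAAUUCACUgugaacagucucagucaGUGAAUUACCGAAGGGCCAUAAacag
Mir96, chr6:30169446-30169551: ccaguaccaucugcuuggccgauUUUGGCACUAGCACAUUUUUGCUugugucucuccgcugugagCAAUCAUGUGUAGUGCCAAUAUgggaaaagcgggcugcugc
Mir182, chr6:30165918-30165992: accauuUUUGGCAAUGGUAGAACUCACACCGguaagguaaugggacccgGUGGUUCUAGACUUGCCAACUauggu

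Mir183 and Mir96 are 116 bases apart, and Mir182 follows 3453 bases further on, so that the locus spans 3820 bases. RefSeq places all 3 hairpins within Mirc35hg, a long non-coding RNA on the same strand (chr6:30158640-30174125). GENCODE vM21 lists no host gene there and lists the long non-coding RNA Rncr4 on the opposite strand (chr6:30172893-30175126). The nearest protein-coding genes are Nrf1 on one side and Ube2h on the other. The table held 0 other features within 100 kb. The longest run of bases that any of the hairpins shared with another of the 1005 RefSeq hairpins was 10 bases for each of Mir183, Mir96 and Mir182, which is shorter than a mature miRNA.

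The mature 5p sequences are shown to compare the seeds, which are in capitals.
mmu-miR-183-5p: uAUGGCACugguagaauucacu
mmu-miR-96-5p: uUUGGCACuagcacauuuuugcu
mmu-miR-182-5p: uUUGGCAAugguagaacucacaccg
mmu-miR-1271-5p: cUUGGCACcugguaagcacuca
The last of these is no member of the cluster and is shown because it carries the same seed as miR-96-5p. The seeds of miR-96-5p and miR-182-5p were identical in 6 of 7 positions and differed by C8A. Those of miR-183-5p and miR-96-5p were also identical in 6 of 7 positions, with A2U as the difference. The seeds of miR-183-5p and miR-182-5p were the least similar, with 5 of 7 positions identical and A2U and C8A as the differences. Over their whole length miR-183-5p and miR-182-5p were the most similar pair, with 18 of 22 positions identical in an alignment from the 5′ end without gaps, against 13 of 22 for miR-183-5p and miR-96-5p and 12 of 23 for miR-96-5p and miR-182-5p. The seeds of miR-183-5p and miR-182-5p were in no other mature miRNA of the RefSeq table. At the hairpin of miR-1271 the feature AC155262.1 (chromosome 13) was listed with 0 reads in both libraries, which allows up to 6.67 RPM (reads scaled to a library total of 1000000) in mESCs and 1.05 RPM in prospermatogonia. The seed of miR-96-3p recurs in miR-3475-5p, whose feature Mir3475 had 0 reads in mESCs and 17 in prospermatogonia. Seeds were sought only in mature miRNAs of RefSeq, and by position 494 of the 1638 features matched a RefSeq hairpin. Among features that this search linked to a 5p seed of the cluster, reads were seen only on the cluster's own hairpins. Whether any other feature of the table carries such a seed was not tested.

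The libraries differed in depth and in what they held besides miRNAs. The deposited log2 values were turned back into whole reads, of which 110455 lay on miRNA features in mESCs and 155237 in prospermatogonia. When the values are read as log2 RPM, the libraries total 449643 and 2869578 reads, and miRNA features made up 24.6% (24.4% to 24.7%) of the mESC library and 5.41% (5.38% to 5.44%) of the prospermatogonia library. RPM values and ratios of RPM below rest on that reading, whereas reads, ranks, shares of miRNA reads and ratios between members do not. The markers of the cell types followed the labels. Over the whole table, 202 of 1638 features had more than 3 reads in mESCs and 224 in prospermatogonia. Of 12 features of the pluripotency clusters (Mir290 to Mir295, Mir302 and Mir367), 12 had more than 3 reads in mESCs and 6 in prospermatogonia, where 3 were at 0. Of 9 features chosen as markers from the X-linked germ cell cluster around Mir470, and not the whole of it, 9 had more than 3 reads in prospermatogonia. In mESCs 2 of them had more than 3 reads and 5 were at 0. Markers of other cells were present in both libraries. The 6 fibroblast and smooth muscle features held 3.31% of the miRNA reads in mESCs and 0.482% in prospermatogonia. Most of these reads were on Mir21, which ranked 10 in mESCs with 2215 reads and 36 in prospermatogonia with 486, and on Mir143, which ranked 15 with 1393 reads and 51 with 260, while Mir199a-1 and Mir199a-2 were at 0 in both. The 5 blood and endothelial features held 0.593% and 0.106%. Most of these reads were on Mir142, with 400 in mESCs and 124 in prospermatogonia, and on Mir126, with 255 and 40. Mir451 had 0 reads in mESCs and 1 in prospermatogonia, and Mir144 and Mir223 were at 0 in both. The 3 features of the gonadal soma held 0.262% and 0.399%. Most of these reads were on Mir140, with 280 in mESCs and 558 in prospermatogonia. Mir202 had 0 reads in mESCs and 57 in prospermatogonia, whereas Mir455 had 9 and 4. The methods describe feeder-free culture of the mESCs and isolation of the prospermatogonia. Whether other cells were present, and what part they would have in the values of the cluster, was not tested.

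The cluster was a major part of the listed miRNA reads in both libraries. Shares are of reads as listed, in which miRNAs with several genomic copies may be counted too low, so that they may be too high. Its 3 members together held 35998 reads in mESCs, which was 32.6% of the miRNA reads (32.3% to 32.9%). In prospermatogonia they held 42850 reads, which was 27.6% (27.4% to 27.8%). The intervals do not overlap, and the share was 1.18-fold (1.16 to 1.20) higher in the mESC library. Without the 10 highest other features of each library in the total, the shares were 54.8% and 50.5%.

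Mir182, the member that lies furthest from the start of the transcript, was the most abundant miRNA feature of both libraries. It had 30670 reads and 27.8% of the miRNA reads (27.5% to 28.0%) in mESCs, and 38933 reads and 25.1% (24.9% to 25.3%) in prospermatogonia. In mESCs its reads were 1.90-fold (1.87 to 1.94) those of Mir295, the feature ranked 2 there. In prospermatogonia they were 1.32-fold (1.30 to 1.34) those of Mir92-1, which was ranked 2 in that library. Mir182 thus stood alone at the top beyond counting error in each library, with a smaller lead in prospermatogonia. These ranks are among features as listed, in which miRNAs with several genomic copies may be counted too low. In mESCs it had at least as many reads as the 273 lowest of the 284 other features with a read combined. In prospermatogonia the same held for the 303 lowest of 316.

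Mir183, the first hairpin of the transcript, was the second member in abundance. It ranked 4 in mESCs, with 5173 reads or 4.68% of the miRNA reads (4.56% to 4.81%). It ranked 8 in prospermatogonia, with 3859 reads or 2.49% (2.41% to 2.56%). Its place in mESCs was not separated from those of its neighbours by counting error. Mir92-1 above it had 1.01-fold (0.976 to 1.05) its reads, and Mir183 had 1.03-fold (0.989 to 1.07) the reads of Mir292 below it. In prospermatogonia Mir470 above it had 1.01-fold (0.968 to 1.06) its reads, while Mir183 had 1.19-fold (1.14 to 1.25) the reads of Mir423 below it. Mir183 therefore belonged to the 10 highest features of both libraries.

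Mir96, the middle hairpin, was far lower than the hairpins on either side of it. It ranked 58 in mESCs, with 155 reads or 0.140% of the miRNA reads (0.120% to 0.164%). It ranked 98 in prospermatogonia, with 58 reads or 0.0374% (0.0289% to 0.0483%). These read numbers are well above 3 but they make Mir96 the least precise member, and its rank is loose. In mESCs Mir434 above it had 160 reads and Mir290 below it had 149. In prospermatogonia Mirlet7g and Mir23b had 59 reads each and Mir202 had 57. None of these neighbours differed from Mir96 beyond counting error.

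**Figure D1:**
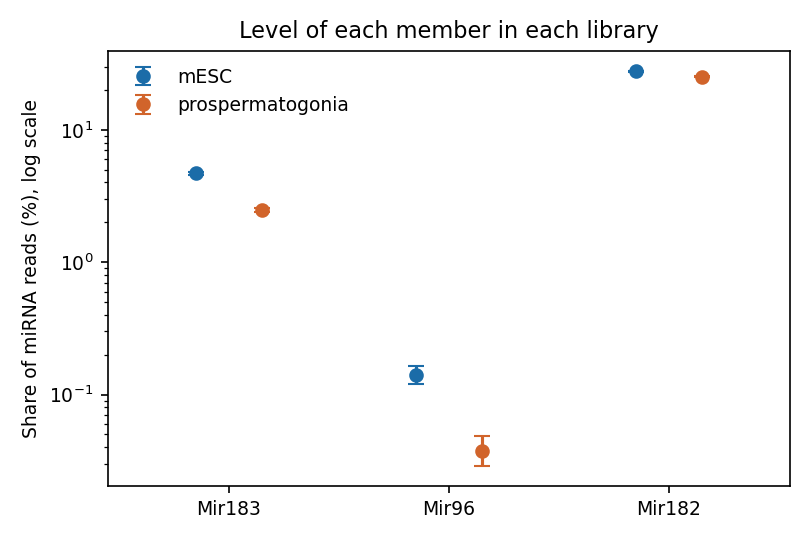
Share of miRNA reads (percent, log axis) of Mir183, Mir96 and Mir182 in the mESC and prospermatogonia libraries, with 95% Wilson intervals of counting error as bars. Mir182 lies at 27.8% and 25.1%, Mir183 at 4.68% and 2.49%, and Mir96 at 0.140% and 0.0374%.

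The order Mir182, Mir183, Mir96 was the same in both libraries, and it does not follow the order of the hairpins along the transcript. Mir183 and Mir96, the close neighbours, differed more from each other than Mir183 did from the distant Mir182. The plot of reads by rank shows Mir182 at the upper end of the curve and Mir96 at place 58 of 285 and 98 of 317, so that most features with a read lay below all 3 members.

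**Figure D2:**
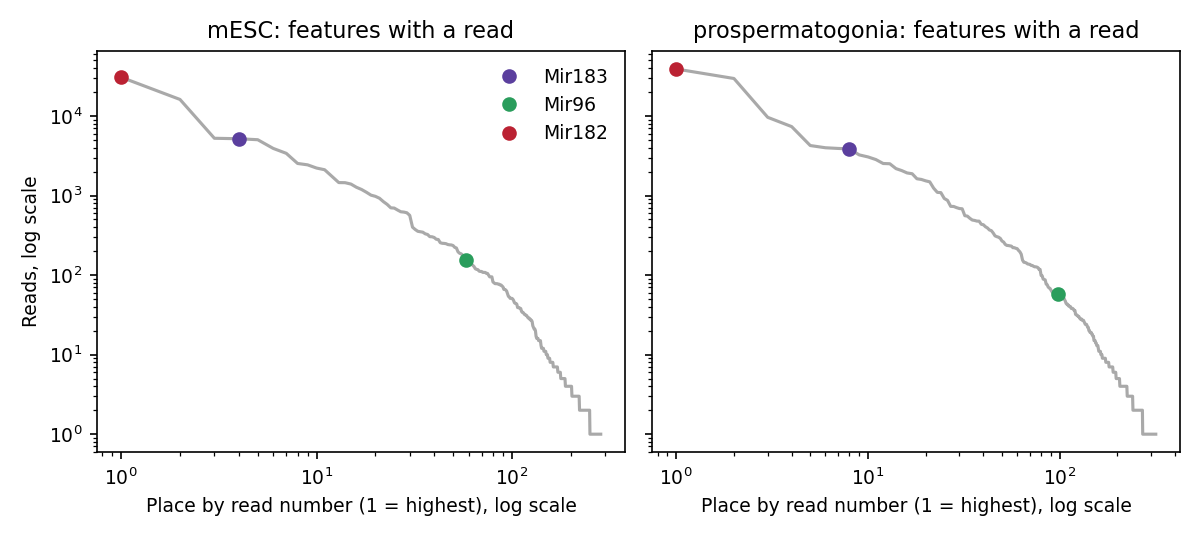
Reads of each miRNA feature with a read against its place in the order of reads (both axes log), for the mESC library (285 features) and the prospermatogonia library (317 features), with the 3 members as coloured points. Mir182 is at place 1 in both, Mir183 at 4 and 8, and Mir96 at 58 and 98.

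The ratios between members of 1 library do not depend on how the libraries are scaled. In mESCs Mir182 had 5.93-fold (5.76 to 6.11) the reads of Mir183, and in prospermatogonia 10.1-fold (9.76 to 10.4). The ratio was thus 1.70-fold (1.63 to 1.78) higher in prospermatogonia. Relative to Mir96, Mir182 was at 198-fold (169 to 232) in mESCs and at 671-fold (519 to 868) in prospermatogonia, which is 3.39-fold (2.51 to 4.59) higher. Mir183 was at 33.4-fold (28.5 to 39.1) the reads of Mir96 in mESCs and at 66.5-fold (51.4 to 86.2) in prospermatogonia, which is 1.99-fold (1.47 to 2.70) higher. None of the 3 pairs had overlapping intervals between the libraries, and in each pair the more abundant member led by more in prospermatogonia. The pairs are not independent, since the ratio of Mir182 to Mir96 follows from the others. How often other pairs of features differ in this way was not computed. A miRNA read covers a whole mature molecule, so that reads were compared without regard to the length of the hairpin. The mature 5p forms are 22, 23 and 25 bases long for Mir183, Mir96 and Mir182. Whether library preparation, which included size selection on a gel, recovered them equally in both libraries was not tested. Per base of the feature (70, 106 and 75 bases for Mir183, Mir96 and Mir182), a scale chosen after the data were seen, the ratios of Mir182 to Mir183 were 5.53 and 9.42 in mESCs and prospermatogonia. On that scale the ratios of Mir183 to Mir96 were 50.5 and 101, and those of Mir182 to Mir96 were 280 and 949. The order of the members was the same on both scales.

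**Figure D3:**
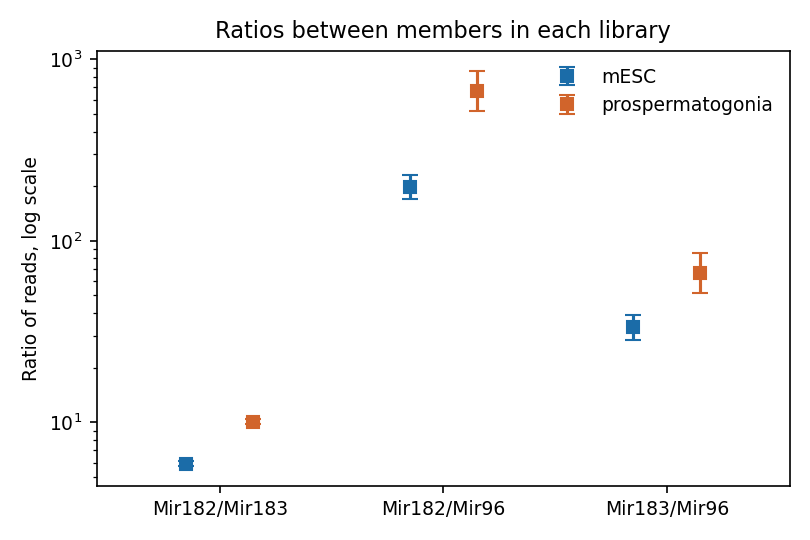
Ratios of reads between pairs of members (log axis) in the mESC and prospermatogonia libraries, with 95% intervals of counting error as bars. Each ratio is higher in prospermatogonia: 10.1 against 5.93 for Mir182 to Mir183, 671 against 198 for Mir182 to Mir96, and 66.5 against 33.4 for Mir183 to Mir96.

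Expressed as composition, the cluster was more strongly dominated by Mir182 in prospermatogonia. Mir182 made up 85.2% (84.8% to 85.6%) of the cluster's reads in mESCs and 90.9% (90.6% to 91.1%) in prospermatogonia. Mir183 made up 14.4% (14.0% to 14.7%) and 9.01% (8.74% to 9.28%). The share of Mir96 was 0.431% (0.368% to 0.504%) in mESCs and 0.135% (0.105% to 0.175%) in prospermatogonia. These differences lie outside the counting error, but the spread between libraries of 1 cell type is not known here.

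The levels of the members were also compared between the libraries, on the scale of RPM. Mir182 was at 68210 RPM in mESCs and 13568 RPM in prospermatogonia, which was 5.03-fold (4.95 to 5.10) lower. Mir183 was at 11505 RPM and 1345 RPM, which was 8.55-fold (8.21 to 8.92) lower in prospermatogonia. Mir96 was at 345 RPM and 20.2 RPM, which was 17.1-fold (12.6 to 23.0) lower. On the scale of log2((RPM + 1) / (RPM + 1)), the ratios of prospermatogonia to mESC were -2.33, -3.10 and -4.03 in this order, and -2.42 for the summed cluster.

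Low RPM in prospermatogonia was the rule for miRNAs. A filter of 10 RPM in one library or the other left 203 features. At least 2-fold lower values in prospermatogonia were found for 164 (80.8%) of these and at least 2-fold higher values for 20 (9.85%), and all 3 members passed this filter and were among the 164. The median log2 ratio was -2.52 over the 203 features and -3.10 over the members. Mir182 was slightly above the median of all features, with 112 of the features lower and 90 higher than it. Mir183 had 74 features below it, and Mir96 had 43. The members thus lay within the bulk of the features, and a count of 3 of 3 beside a background of 80.8% says little about the cluster itself.

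With the libraries scaled to their miRNA reads instead of their totals, which moves every log2 ratio up by 2.18 before the pseudocount, 81 of the 203 features (39.9%) were at least 2-fold lower and 41 (20.2%) at least 2-fold higher. The members lay on different sides of the 2-fold threshold on this scale, at nearly the same distances from each other. Mir96 was at least 2-fold lower, with a log2 ratio of -1.90, Mir183 was at -0.91, and Mir182 was at -0.15, against a median of -0.46 over all features. With scaling to the median ratio of 111 features, Mir182 was at 0.043 and so changed sign, while Mir183 was at -0.72 and Mir96 at -1.71. Per miRNA read, Mir182 was therefore 1.11-fold (1.09 to 1.12) lower in prospermatogonia, Mir183 1.88-fold (1.81 to 1.96) lower and Mir96 3.76-fold (2.78 to 5.07) lower. In bulk libraries such as these, fewer cells that express a miRNA cannot be told apart from less of it per cell.

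**Figure D4:**
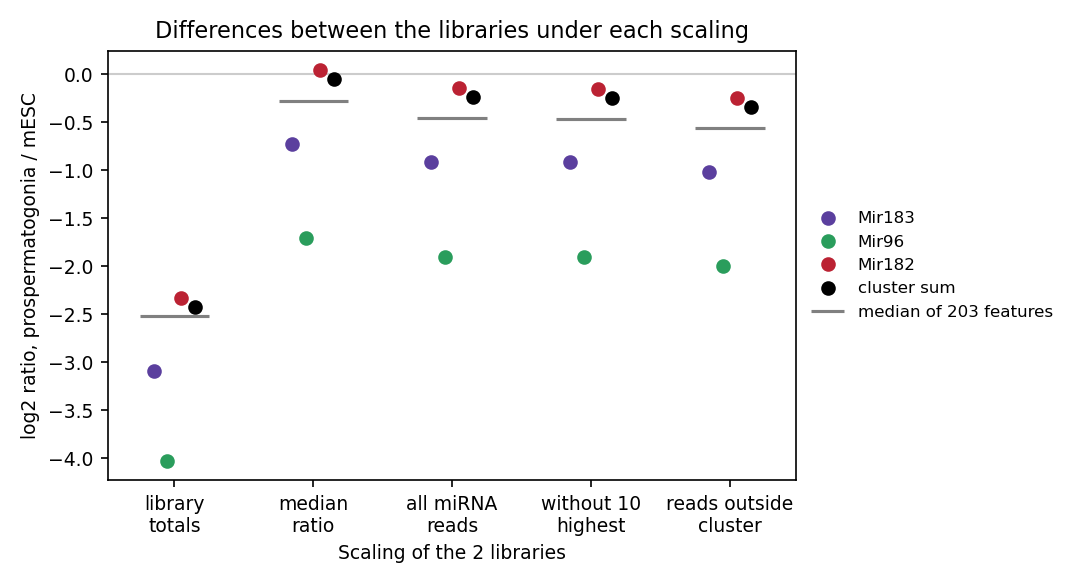
Log2 ratio of prospermatogonia to mESC for Mir183, Mir96, Mir182 and the summed cluster under each of 5 scalings of the libraries, with the median of 203 features as a grey line. A scaling moves the members together by nearly the same amount, and Mir182 under median ratio scaling is the one point above 0, at 0.043.

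Other miRNA clusters were used to see how far members of 1 locus differ. The spread is the highest minus the lowest log2 ratio among members with more than 3 reads in both libraries, and it does not depend on the scaling apart from the pseudocount. It was 1.70 for the 3 members of the Mir183 cluster. It was 1.00 for Mir106b, Mir93 and Mir25, which are processed from an intron of Mcm7. For 6 members of the Mir290 cluster, the main miRNAs of pluripotent mouse cells, it was 2.02. For 5 members of the Mir17 cluster, a cluster known for its part in cell proliferation, it was 4.01, from -0.18 for Mir92-1 to -4.18 for Mir19a. The read minimum left out a member of each of these last clusters. Mir291b of the Mir290 cluster had 350 reads in mESCs and 2 in prospermatogonia, which was 1117-fold (305 to 4086) higher in mESCs. Mir19b-1 of the Mir17 cluster had 1 read and 18 reads, which was 2.82-fold (0.479 to 16.6) higher in prospermatogonia. When these members were counted too, which was decided only after their values were known, the spread was 4.88 for the Mir290 cluster and 5.36 for the Mir17 cluster, whereas all members of the Mir183 and Mir106b-25 clusters had already been counted. Copies of Mir92-1 and of the Mir19 family lie elsewhere in the genome, so that the division of their reads is uncertain. The clusters were not ranked by these values, since a range grows with the number of members and the spread of the Mir183 cluster rests on the 155 and 58 reads of Mir96.

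The clusters differed in how much of the miRNA reads they held in each library. The Mir183 cluster held 32.6% in mESCs and 27.6% in prospermatogonia, whereas the Mir290 cluster held 24.5% (24.2% to 24.7%) and 3.25% (3.16% to 3.34%). The share of the Mir17 cluster was 5.45% (5.32% to 5.58%) in mESCs and 19.6% (19.4% to 19.8%) in prospermatogonia. The Mir106b-25 cluster was at 2.59% (2.50% to 2.69%) and 3.68% (3.59% to 3.77%). Of these 4 clusters the Mir183 cluster had the largest share in both libraries. A single member led each cluster in mESCs, and the lead of Mir182 with 85.2% of its cluster was close to that of Mir92-1 with 87.1% of the Mir17 cluster. Mir25 led the Mir106b-25 cluster with 60.6% and Mir295 the Mir290 cluster with 59.7%. In prospermatogonia the leading shares were 90.9% for Mir182, 97.2% for Mir92-1, 74.4% for Mir25, and 40.8% for Mir292, which took the place of Mir295.

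**Figure D5:**
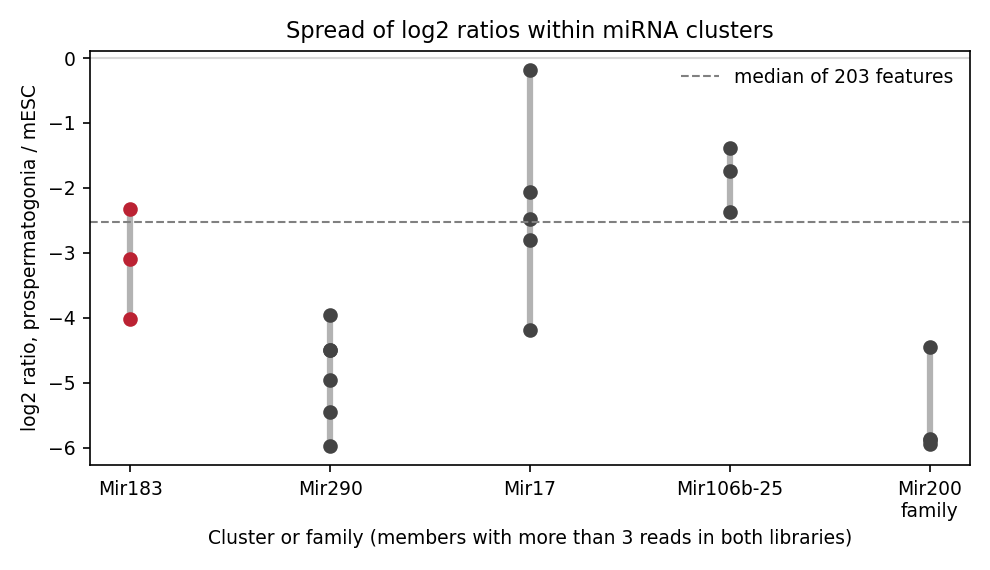
Log2 ratio of prospermatogonia to mESC of each member with more than 3 reads in both libraries, for the Mir183, Mir290, Mir17 and Mir106b-25 clusters and the Mir200 family. The dashed line is the median of 203 features, -2.52, and the 3 members of the Mir183 cluster (red) lie from -2.33 to -4.03, while Mir291b, Mir19b-1 and Mir200a had too few reads to be drawn.

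Few or no reads were listed for miRNAs that share known sites of expression in nerve and sense organs with the cluster, but most of these features belong to miRNAs with several genomic copies. Of the sensory and neural miRNAs, 9 features were listed, including copies of Mir124a, the most abundant miRNA of neurons, Mir9, Mir204, Mir211 and Mir7. They held 7 reads in mESCs, all on Mir7-1, and 19 reads in prospermatogonia, of which 13 were on Mir204. The other reads in prospermatogonia were 3 on Mir211 and 3 on Mir7-1. The 3 features of Mir124a and the 2 of Mir9 were at 0 reads in both libraries. Copies of other miRNAs were also near 0 in this table, such as Mir16-1 with 4 reads in mESCs and 1 in prospermatogonia and Mir16-2 with 4 and 3. How reads with several matches were counted is not given, so that a value near 0 on such a feature does not show that the miRNA was low. Of the 9 features, 1 passed the filter of 10 RPM, as did 203 of the 1638 features of the table, so that this count says nothing about the list.
The 5 features of the Mir200 family, which marks epithelial cells, held 663 reads in mESCs and 59 in prospermatogonia, which was 0.600% (0.556% to 0.648%) and 0.0380% (0.0295% to 0.0490%) of the miRNA reads. Mir200b was the highest of them, with 374 reads in mESCs and 38 in prospermatogonia, a log2 ratio of -5.87. The other 4, with 23 to 100 reads in mESCs and 2 to 8 in prospermatogonia, reached 10 RPM in the mESC library alone, so that a lower value in prospermatogonia was fixed by the filter, and nothing is read from their number or from how they compare with the cluster.

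The features whose log2 ratio was nearest to that of the summed cluster were sought among the 37 others with 100 RPM or more in both libraries. With 2 libraries this likeness is only that of a single ratio. The nearest was Mir93 at -2.38, followed by Mir335 at -2.52, Mir27b at -2.64, Mir151 at -2.20 and Mir17 at -2.06. Mir335 lies on the same chromosome, 571561 bases from Mir183, and had 282 reads in mESCs and 311 in prospermatogonia. Its reads were thus well below those of Mir183 in both libraries, at a log2 ratio that differed from that of the summed cluster by 0.099.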

How the data were processed

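The smRNA-seq table of 1 mESC library and 1 E15.5 male germ cell library was used. Per the labels and the study's methods, the authors made libraries with the Illumina TruSeq Small RNA kit, selected cDNA by size on a gel, trimmed reads (Trim Galore 0.4.1 in the submitters' processing notes) and mapped them with Bowtie. The methods name piPipes and mm9, whereas the notes name GRCm38, which the positions of the members match. The authors deposited 1 log2 value per feature and library. How reads were counted, and whether strand or several matches were taken into account, is not given in the sources used here.

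In linear form, every deposited log2 value above the lowest was a whole multiple of a constant within 0.0165 reads, so that reads were recovered. The lowest value equals 0.9 reads and was set to 0. One read is worth 2.22 RPM in mESCs and 0.348 RPM in prospermatogonia. Reading the values as log2 RPM follows the unit given for the study's RNA-seq and could not be checked from the table. Of the features, 636 carry a miRNA name and 1002 that of a genomic clone.

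Shares and ratios carry 95% Wilson intervals, and ratios of ratios carry Woolf intervals. A fold across libraries uses a pseudocount of 1 RPM only on the log2 scale, which understates changes of low features. Intervals were added because reads could be recovered. The members and lists were chosen with earlier results of these data known. Features named are the members, features that share a seed, rank neighbours, the 5 features nearest in log2 ratio, and the lists. The alternatives are given in the closing section. The steps were tested on simulated reads. Computations ran in Python 3.11.15 with scipy 1.17.1, pandas 2.3.3 and numpy 2.4.6, and plots were drawn with matplotlib 3.10.9.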

Additional observations from a re-analysis of the deposited data

How the results depend on the processing

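There were no replicates to leave out, with 1 library for each cell type. No paired analysis was possible because no group has a second library and no test was run. Of 62 alternatives, 25 stayed within the counting interval of the value (for counts, within 1.5-fold, and for ranks and spreads, at the same value), 36 moved and 1 reversed, in most cases because the alternative rescales the values by its construction. Depth limits Mir96 most, with 155 and 58 reads.

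The cluster's share of miRNA reads was 33.7% in mESCs and 28.1% in prospermatogonia with features that carry a miRNA name only, 54.8% and 50.5% without the 10 highest other features, and 32.2% in mESCs with the deposited values in linear form. Among named features Mir96 ranked 56 and 94, and the other ranks did not change. For the shares of the members within the cluster only the linear form was tried, which cannot move them beyond rounding. Per base of the feature, chosen after the data were seen, Mir182 to Mir183 was 5.53 and 9.42, Mir182 to Mir96 was 280 and 949, and Mir183 to Mir96 was 50.5 and 101.

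Log2 ratios moved with each scaling and with neither pseudocount (0.1 and 5 RPM). With median ratio scaling, Mir183 was at -0.72, Mir96 at -1.71, the summed cluster at -0.050, and Mir182 reversed to 0.043. With scaling to all miRNA reads they were -0.91, -1.90, -0.24 and, for Mir182, -0.15. Without the 10 highest features they were -0.91, -1.90, -0.24 and -0.15. With scaling to miRNA reads outside the cluster, chosen after the data were seen, they were -1.02, -1.9995, -0.34 and -0.25. Each scaling shifts all members by 1 amount before the pseudocount, so that their order could not change.

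The 20 features that were higher by 2-fold or more in prospermatogonia became 5 with 10 RPM or more required in both libraries, 45 with median ratio scaling and 41 with scaling to all miRNA reads. The 164 lower features became 91, 74 and 81 in the same order. Of the calls, 10.9% were higher as reported, against 37.8% and 33.6% with these scalings. With 10 RPM or more required in both libraries, the share of higher calls was 5.21%. At a 4-fold threshold, 14 features were higher and 131 lower.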
